A study of Mus musculus with 12 samples.

Results

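The 34 genes described here encode the enzymes that bring pyruvate into the mitochondrion, run the tricarboxylic acid (TCA) cycle, carry carbon out of it and feed the pentose phosphate pathway. They were taken by symbol from the 49315 genes of the count table, and all 34 matched 1 row each. By role they comprise 11 genes of pyruvate entry and its control, 11 of the TCA cycle, 8 of NADP-linked and cytosolic side reactions and 4 of the pentose phosphate pathway. They were studied in group 2 innate lymphoid cells (ILC2s), tissue lymphocytes that lack antigen receptors and secrete type 2 cytokines, and in eosinophils, granulocytes that ILC2 cytokines help to maintain.

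There were 12 RNA-seq libraries in 4 groups of 3, all from C57BL/6 mice: ILC2s cocultured with eosinophils, ILC2s alone, eosinophils cocultured with ILC2s, and eosinophils alone. Lung ILC2s had been expanded in IL-33, IL-25, IL-2 and IL-7 and rested for 48 h in IL-2 and IL-7, whereas eosinophils were the blood fraction not retained by B220 and CD90 beads and had spent 24 h in IL-33. After washing, each culture lasted 24 h without cytokines, and the cell types were then separated by flow cytometry. The labels give neither the cell numbers nor whether replicates were separate cultures or animals, so each p-value measures the spread between these libraries, which may be technical.

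Pyruvate made by glycolysis enters the mitochondrion through the carrier MPC and is oxidised to acetyl-CoA by the pyruvate dehydrogenase complex, which the PDK kinases switch off by phosphorylation. The TCA cycle oxidises acetyl-CoA, and its citrate and malate can be exported to make cytosolic acetyl-CoA and NADPH. The pentose phosphate pathway diverts glucose 6-phosphate to NADPH and ribose 5-phosphate, and NADPH feeds the oxidase that granulocytes use for the respiratory burst.

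Library totals ran between 16769929 and 22928961 counts, so that 3 counts in a library equalled 0.131 to 0.179 CPM (counts-per-million). Levels below are CPM with TMM scaling over all 12 libraries, and fold changes come from the fit of each comparison. The cell labels held against their markers: the 8 eosinophil markers summed to 2.22 to 3.40 CPM in cocultured ILC2s and 2.45 to 2.70 CPM in ILC2s alone, with Prg3 at 0 in both, and to 11172 to 11404 CPM in cocultured eosinophils and 8068 to 8784 CPM in eosinophils alone. The 9 ILC2 markers summed to 7376 to 7832 CPM in cocultured ILC2s, 7510 to 7586 CPM in ILC2s alone, 2819 to 3089 CPM in cocultured eosinophils and 3223 to 3553 CPM in eosinophils alone, where Ptprc, a gene of all leukocytes, gave most of the sum. Some markers of other cells moved with coculture. The erythroid and platelet list summed to 13.1 to 16.8 CPM in cocultured ILC2s against 0.288 to 0.524 CPM in ILC2s alone, nearly all of it Hba-a1 (1018 counts against 29), while Hbb-bs and Pf4 were at 0 in both groups and Ppbp had 1 count against 0. The neutrophil list summed to 1.69 to 5.45 CPM in cocultured ILC2s against 0 to 0.0901 CPM in ILC2s alone, from Mpo (171 counts against 3) and Elane (51 against 0), while S100a8 and S100a9 were at 0 in both groups and Ly6g had 1 count against 0. In eosinophils the neutrophil list, there mainly Ly6g, S100a8 and S100a9, summed to 4.50 to 6.30 CPM in coculture against 9.98 to 16.8 CPM alone, and the basophil and mast cell list, mainly Hdc, to 23.2 to 25.6 CPM in coculture against 46.6 to 55.0 CPM alone. The monocyte and macrophage list, mainly Adgre1, summed to 2117 to 2158 CPM in cocultured eosinophils and 2273 to 2402 CPM in eosinophils alone. Within it Ly6c2 had 1191 counts in coculture against 2342 alone, and Csf1r 24778 against 20911. The B cell list, mainly Cd79a, summed to 19.4 to 21.5 CPM in cocultured eosinophils against 14.3 to 16.9 CPM alone. The erythroid and platelet list summed to 1.30 to 1.71 CPM in cocultured eosinophils against 0.267 to 0.616 CPM alone. The T and NK cell list, mainly Cd3d there, summed to 1.65 to 3.65 CPM in coculture against 4.01 to 4.34 CPM alone. The part of these transcripts or their source in the results was not tested.

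The upstream sequences of 4 genes are shown first, because Pdk2, Pdk3 and Acly were called in opposite directions in the 2 cocultured cell types and Pdk1 had the largest fold change of the set in eosinophils. Me2 was also called in opposite directions, but the promoter set held no entry for it. Each is the stretch of 250 bases that ends at the base before the RefSeq start site (GRCm38.p6, the build of the count table under its other name, mm10), written 5′ to 3′ on the strand of the gene. Capitals mark ACGTG or GCGTG on either strand, the core letters bound by the hypoxia-inducible factors. Pdk1 lies at chr2:71872974-71873223 on the plus strand. The other 3 lie on the minus strand, Pdk2 at chr11:95041372-95041621, Pdk3 at chrX:93832151-93832400 and Acly at chr11:100528001-100528250.
Pdk1: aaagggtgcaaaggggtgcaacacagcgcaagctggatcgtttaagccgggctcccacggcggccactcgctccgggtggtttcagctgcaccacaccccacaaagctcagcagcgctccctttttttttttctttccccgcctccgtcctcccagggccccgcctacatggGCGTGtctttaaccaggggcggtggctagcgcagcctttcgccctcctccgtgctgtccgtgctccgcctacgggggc
Pdk2: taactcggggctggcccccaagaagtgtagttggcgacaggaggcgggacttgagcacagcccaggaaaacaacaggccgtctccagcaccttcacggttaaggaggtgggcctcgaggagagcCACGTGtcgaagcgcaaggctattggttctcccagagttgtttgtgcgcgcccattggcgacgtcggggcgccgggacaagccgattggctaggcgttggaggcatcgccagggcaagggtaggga
Pdk3: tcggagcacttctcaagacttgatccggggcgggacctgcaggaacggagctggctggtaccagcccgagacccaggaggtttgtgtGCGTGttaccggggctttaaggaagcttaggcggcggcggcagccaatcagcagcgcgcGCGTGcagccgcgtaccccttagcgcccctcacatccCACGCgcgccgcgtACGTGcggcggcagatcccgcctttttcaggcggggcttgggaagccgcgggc
Acly: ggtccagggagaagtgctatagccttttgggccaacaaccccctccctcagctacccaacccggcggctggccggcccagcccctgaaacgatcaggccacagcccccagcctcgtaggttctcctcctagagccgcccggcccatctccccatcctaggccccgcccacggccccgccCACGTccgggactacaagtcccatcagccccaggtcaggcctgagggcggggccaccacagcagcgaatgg

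The Pdk1 stretch held 1 match, whose first base lay 78 bases before the start site, and the Acly stretch held 1, at 71 bases. The Pdk3 stretch held 4 separate matches. In Pdk2 the 2 matches were both strands of 1 CACGTG, the E-box letters. Over the 31 genes with a RefSeq start site near their annotated 5′ end, 22 (71.0%) held ACGTG or GCGTG on either strand, against 38.6% of 32851 promoters of the same length. The median GC content was 61.6% in the 31 promoters and 52.4% in all promoters. CACGTG, whose letters contain ACGTG, was found in 6.45% of the 31 and 6.02% of all promoters, and TGACNNNGC, the antioxidant response letters, in 9.68% of the 31 and 10.2% of all promoters. These matches describe the letters in the window and do not show binding.

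In ILC2s cultured with eosinophils, most of the enzyme genes were higher than in ILC2s alone. Of the 33 that could be tested, 25 rose, 3 fell and 5 were not called (edgeR quasi-likelihood test, Benjamini-Hochberg adjusted p under 0.05). Calls made up 72.4% of all 14438 genes tested in that comparison, with 36.8% of genes higher and 35.6% lower, while 84.8% of the tested enzyme genes were called and 75.8% were higher. Their median log2 fold change was 0.49, beside 0.0029 over all genes. Under library-total scaling the calls over all genes became 4389 higher and 6327 lower, against 5315 higher and 5139 lower here. The fourth kinase gene, Pdk4, was left out everywhere for lack of reads. In bulk RNA of this kind, fewer expressing cells and less RNA per cell cannot be told apart.

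In eosinophils the same set moved little, apart from a few genes. Of 32 tested, 6 rose, 4 fell and 22 were not called (31.2% called), where 24.9% of all 13109 genes were called, 11.4% higher and 13.5% lower. The median log2 fold change was 0.055, beside 0.0044 over all genes. Only 2 of the 6 rises, in Pdk2 and Idh3g, kept their call without the first eosinophils-alone library. With scaling by library totals the calls over all genes became 2118 higher and 1532 lower, against 1493 higher and 1771 lower here.

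**Figure D1:**
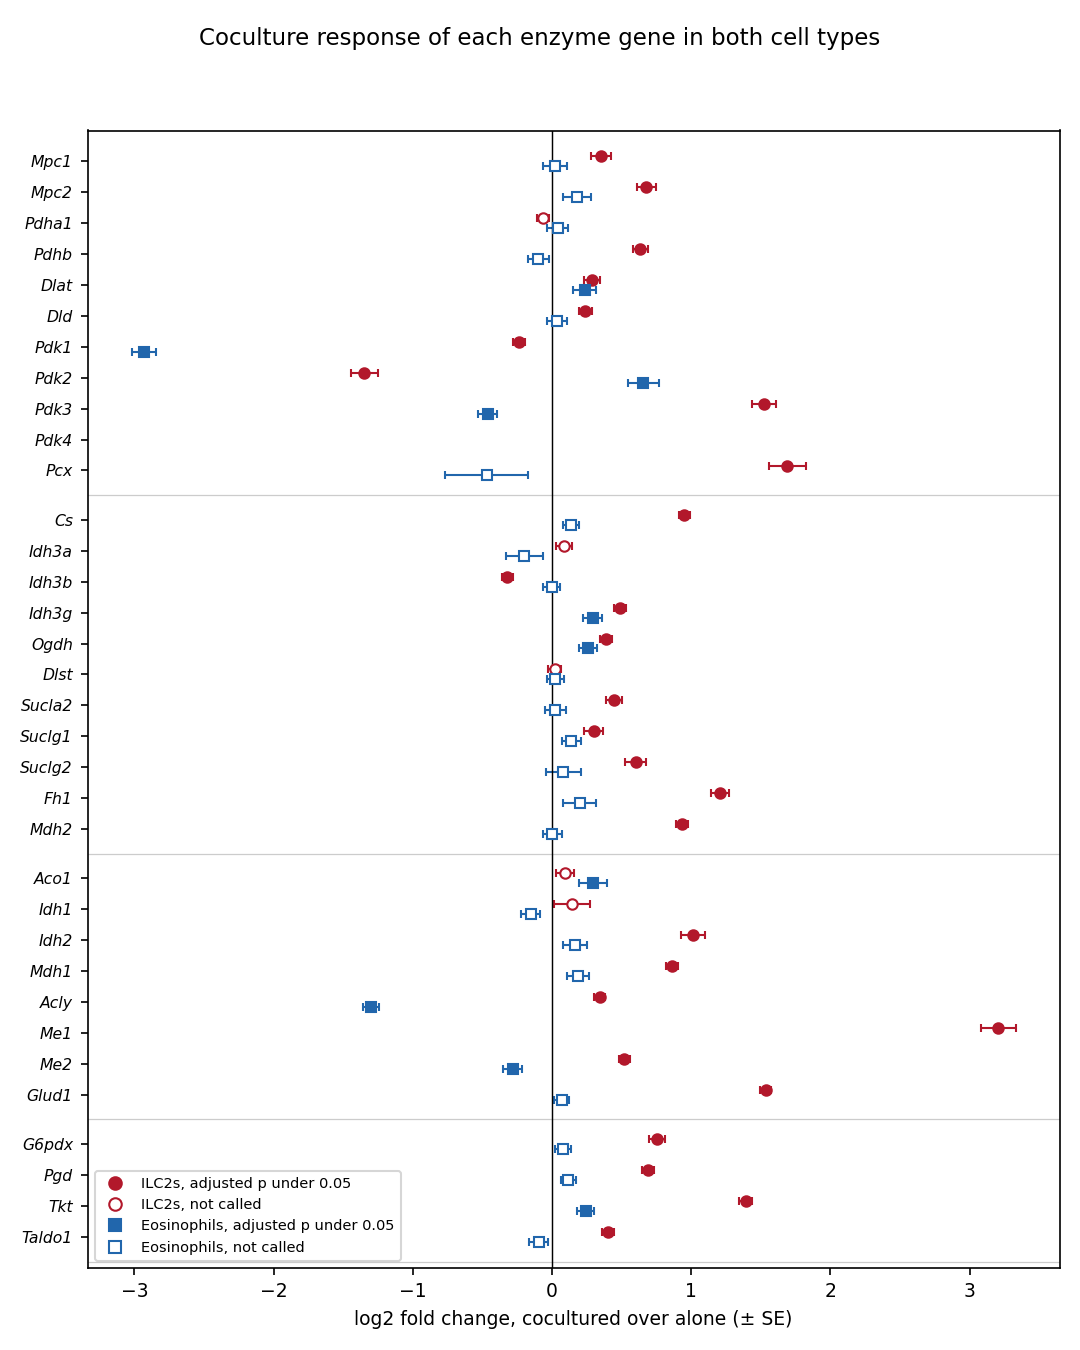
Log2 fold change of each enzyme gene, cocultured over alone, with its SE, in ILC2s (circles) and eosinophils (squares); filled symbols passed the test and open ones did not. The ILC2 symbols lie mostly right of 0, up to 3.21 for Me1, while most eosinophil symbols lie near 0 and Pdk1 reaches -2.93 and Acly -1.30.

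Among the genes that govern pyruvate oxidation, the PDK kinases changed in both cell types, and each changed differently. Pdk1, a kinase gene known as a target of hypoxia-inducible factor, stood at 16.2, 16.4 and 16.9 CPM in cocultured eosinophils, against 121, 135 and 115 CPM in eosinophils alone. The groups lay far apart, and Pdk1 fell by 2.93 ± 0.086 on the log2 scale (SE, edgeR adjusted p = 3.06e-11), 7.64-fold lower. In ILC2s it stood at 136, 144 and 153 CPM in coculture, against 173, 167 and 168 CPM alone. The ranges did not overlap there either, and the fall was called, at a log2 fold change of -0.24 ± 0.042 (edgeR adjusted p = 1.08e-05).

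Pdk2, the kinase gene expressed in most tissues, went opposite ways. Cocultured ILC2s had 8.30, 8.70 and 7.47 CPM, against 20.9, 20.1 and 20.8 CPM in ILC2s alone. Cocultured eosinophils had 16.3, 15.9 and 15.9 CPM, against 9.63, 9.24 and 11.0 CPM in eosinophils alone. Neither pair of groups overlapped, and the log2 fold change was -1.35 ± 0.095 in ILC2s (edgeR adjusted p = 2.63e-13) and 0.66 ± 0.11 in eosinophils (edgeR adjusted p = 0.000773).

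Pdk3 showed the reverse. This gene encodes a kinase with a narrow tissue range in mammals. It had 40.7, 38.4 and 44.6 CPM in cocultured ILC2s, against 16.7, 12.7 and 13.6 CPM in ILC2s alone, a 2.88-fold rise (log2 fold change 1.52 ± 0.085, edgeR adjusted p = 1.07e-15). It had 70.6, 66.9 and 74.4 CPM in cocultured eosinophils, against 96.9, 87.7 and 102 CPM in eosinophils alone, a log2 fold change of -0.46 ± 0.071 (edgeR adjusted p = 0.000266). Again no library of one group reached the range of the other. Pdk4, the kinase gene induced by fasting in other tissues, had 16 counts over the 12 libraries, namely 2 in cocultured ILC2s, 5 in ILC2s alone, 7 in cocultured eosinophils and 2 in eosinophils alone.

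**Figure D2:**
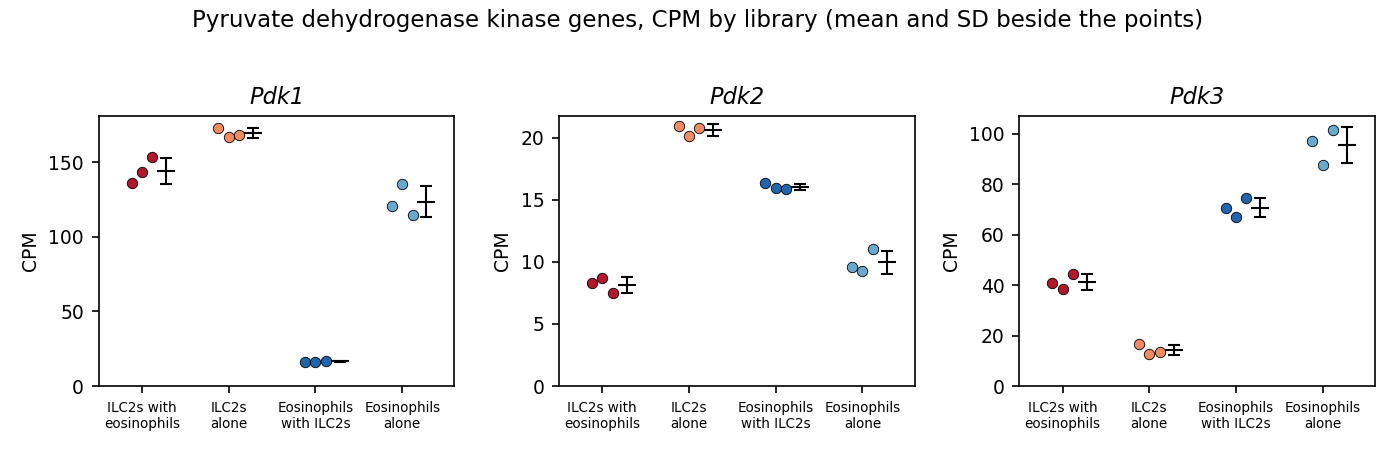
CPM of Pdk1, Pdk2 and Pdk3 in each of the 12 libraries (points), with the group mean and SD beside them and the axes starting at 0. Pdk1 sits near 16.5 CPM in cocultured eosinophils and above 114 CPM in the other groups, while Pdk2 and Pdk3 shift in opposite directions in the 2 cell types.

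Per kilobase of exon, the kinase transcripts were made up differently in each group. Pdk1 made up 49.8% ± 1.21 of the summed CPM per kb in cocultured ILC2s and 64.3% ± 1.38 in ILC2s alone, and 6.10% ± 0.211 in cocultured eosinophils and 28.3% ± 3.25 in eosinophils alone (SD, n = 3 each). Pdk3 made up 43.2% ± 1.57 in cocultured ILC2s and 16.4% ± 1.74 in ILC2s alone, and 79.2% ± 0.745 in cocultured eosinophils and 66.1% ± 2.98 in eosinophils alone. Pdk2 contributed 6.95% ± 0.854 in cocultured ILC2s, against 19.2% ± 0.500 in ILC2s alone, and 14.6% ± 0.674 in cocultured eosinophils and 5.59% ± 0.369 in eosinophils alone. Summed over the genes, the level was 37.2 ± 1.96 CPM per kb in cocultured ILC2s, against 33.9 ± 1.37 in ILC2s alone, and 34.8 ± 1.51 in cocultured eosinophils and 56.3 ± 1.69 in eosinophils alone. These shares used the union of annotated exons, which includes rare isoforms, and were not tested.

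**Figure D3:**
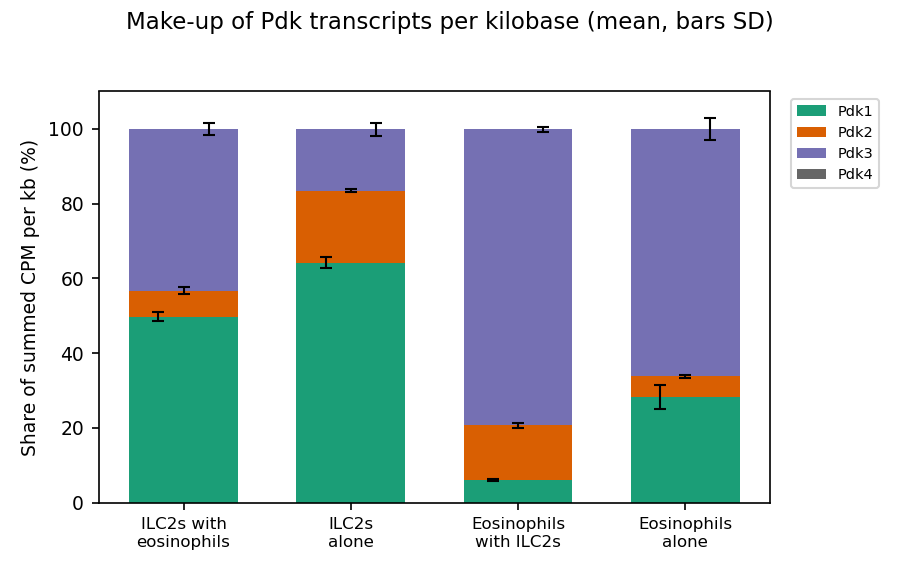
Share of each Pdk gene in the summed CPM per kb of the family (mean of 3 libraries, bars SD). Pdk1 makes up the largest share in both ILC2 groups and Pdk3 in both eosinophil groups, with the Pdk1 share at 6.10% in cocultured eosinophils.

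The pyruvate entry group outside the kinases also held rises in ILC2s. Pcx, pyruvate carboxylase, which makes oxaloacetate from pyruvate, had 15.7, 14.2 and 13.2 CPM in cocultured ILC2s, against 3.46, 4.37 and 5.24 CPM in ILC2s alone. All cocultured libraries lay above the others, and the log2 fold change was 1.69 ± 0.13 (edgeR adjusted p = 1.98e-12). In eosinophils Pcx was low, at 1.67, 1.58 and 2.28 CPM in coculture and 1.80, 2.71 and 2.97 CPM alone, overlapping ranges that were not called. Both carrier genes, Mpc1 and Mpc2, and 3 genes of the dehydrogenase complex rose in ILC2s, with log2 fold changes of 0.35 for Mpc1, 0.68 for Mpc2, 0.63 for Pdhb (E1 beta subunit), 0.29 for Dlat (E2) and 0.24 for Dld (E3, shared with other dehydrogenases). Pdha1, the E1 alpha subunit that the kinases phosphorylate, was not called, at 146.8 ± 1.18 CPM in cocultured ILC2s, against 153 ± 8.52 CPM in ILC2s alone (SD, n = 3 each). With scaling by library totals the Dld call was lost (log2 fold change 0.082) and Pdha1 was called lower (-0.22).

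In cocultured eosinophils 1 of these 6 carrier and complex genes passed the test, where 24.9% of all genes were called. Dlat had a log2 fold change of 0.24 ± 0.081 and an edgeR adjusted p of 0.0499, and DESeq2 gave an adjusted p of 0.0898. Mpc1 shares 480 exonic bases with an antisense gene and has a pseudogene with 850 counts in all, and Pdha1 shares 603 bases with Map3k15 on the other strand. As the strand setting is not given in the sources used here, their values are uncertain to that extent.

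In the TCA cycle, 8 of 11 genes rose in cocultured ILC2s, 1 fell and 2 were not called. Over all genes 72.4% were called there, 36.8% higher and 35.6% lower. Fh1, fumarate hydratase, had 66.2, 64.6 and 58.5 CPM in cocultured ILC2s, against 27.5, 24.9 and 28.9 CPM in ILC2s alone. The groups did not overlap, and the log2 fold change was 1.21 ± 0.064 (edgeR adjusted p = 2.7e-16). Cs, citrate synthase, which opens the cycle, averaged 214 ± 0.719 CPM in cocultured ILC2s, against 110.3 ± 6.51 CPM in ILC2s alone (SD, n = 3 each), a 1.93-fold rise. Mdh2, the mitochondrial malate dehydrogenase that closes it, averaged 180.1 ± 8.25 CPM in cocultured ILC2s and 93.6 ± 2.76 CPM in ILC2s alone, a 1.91-fold rise.

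The middle of the cycle moved less. The log2 fold changes in ILC2s were 0.39 for Ogdh (E1 of the oxoglutarate dehydrogenase complex), 0.45 for Sucla2 and 0.60 for Suclg2 (the ATP-forming and GTP-forming beta subunits of succinyl-CoA ligase) and 0.30 for Suclg1 (their shared alpha subunit). Dlst, E2 of the oxoglutarate complex, was not called at 0.018, and with scaling by library totals it was called lower at -0.14 while the Suclg1 call was lost (0.14). The NAD-linked isocitrate dehydrogenase showed 3 different responses within 1 enzyme. Its gamma subunit gene Idh3g had 97.9, 100.4 and 96.2 CPM in cocultured ILC2s against 68.5, 69.4 and 70.3 CPM in ILC2s alone, a log2 fold change of 0.49. Its beta subunit gene Idh3b had 109.8, 115 and 110.4 CPM in cocultured ILC2s against 137, 138 and 142 CPM in ILC2s alone, and fell by 0.32 ± 0.040 (edgeR adjusted p = 3.31e-08). Its catalytic alpha subunit gene Idh3a was not called, with 63.9, 57.5 and 61.0 CPM in cocultured ILC2s and an overlapping 53.3, 59.2 and 58.2 CPM in ILC2s alone.

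Cocultured eosinophils had 2 called TCA cycle genes of 11, where 24.9% of all genes were called. Idh3g had 79.9, 82.2 and 83.2 CPM in coculture, against 66.2, 59.8 and 70.5 CPM in eosinophils alone (log2 fold change 0.29 ± 0.069, edgeR adjusted p = 0.00681). Ogdh had 224, 240.0 and 229 CPM in coculture, against 179, 199.9 and 188 CPM in eosinophils alone (log2 fold change 0.26 ± 0.062, edgeR adjusted p = 0.00732). Neither pair of groups overlapped. The Ogdh call was lost without the first eosinophils-alone library (edgeR adjusted p = 0.0569). The log2 fold changes of the other 9 lay between -0.20 for Idh3a and 0.20 for Fh1.

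The enzymes around the cycle held the largest rise in ILC2s. Me1, the cytosolic malic enzyme, which makes NADPH and pyruvate from malate, had 20.9, 21.0 and 19.1 CPM in cocultured ILC2s, against 2.30, 2.30 and 1.99 CPM in ILC2s alone. These values rest on 490, 473 and 464 counts in coculture and 48, 51 and 57 counts alone, and none of the other 32 tested genes rose by as much in ILC2s (9.23-fold, log2 fold change 3.21 ± 0.12, edgeR adjusted p = 1.75e-19). In eosinophils Me1 had 5 counts in the 3 cocultured libraries and 9 in the 3 libraries alone, too few to test. Me2, the mitochondrial malic enzyme, had 129.7, 126 and 123 CPM in cocultured ILC2s against 86.2, 87.6 and 88.3 CPM in ILC2s alone, and rose by 0.52 ± 0.041 on the log2 scale (edgeR adjusted p = 3.1e-12). In eosinophils Me2 had 64.3, 59.3 and 62.1 CPM in coculture against 71.5, 71.9 and 78.0 CPM alone, and fell by 0.28 ± 0.067 (edgeR adjusted p = 0.00682). The Me1 share of malic enzyme CPM per kb was 23.3% ± 0.650 in cocultured ILC2s, against 4.53% ± 0.395 in ILC2s alone (SD, n = 3 each).

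Acly, ATP citrate lyase, which splits exported citrate into cytosolic acetyl-CoA, was the second gene besides Pdk1 with a large fall in eosinophils. It had 445, 466 and 440.2 CPM in cocultured eosinophils, against 1045, 1122 and 1091 CPM in eosinophils alone, 2.46-fold lower (log2 fold change -1.30 ± 0.055, edgeR adjusted p = 1.09e-09). In ILC2s Acly had 239.5, 220.2 and 221 CPM in coculture, against 182, 171 and 182 CPM alone, a rise of 0.34 ± 0.041 on the log2 scale (edgeR adjusted p = 1.39e-08). No ranges overlapped in either cell type.

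Glud1, glutamate dehydrogenase, which turns glutamate into 2-oxoglutarate, had 1023, 1059 and 1098 CPM in cocultured ILC2s, against 368, 353 and 371 CPM in ILC2s alone, a 2.90-fold rise (log2 fold change 1.53 ± 0.039, edgeR adjusted p = 5.96e-24). In eosinophils it had 240.3, 239.8 and 243 CPM in coculture against 226, 228 and 222 CPM alone, and was not called (log2 fold change 0.069, edgeR adjusted p = 0.397). Mdh1, the cytosolic malate dehydrogenase of the malate-aspartate shuttle, averaged 155 ± 1.08 CPM in cocultured ILC2s, against 84.7 ± 3.07 CPM in ILC2s alone (SD, n = 3 each), a 1.82-fold rise.

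**Figure D4:**
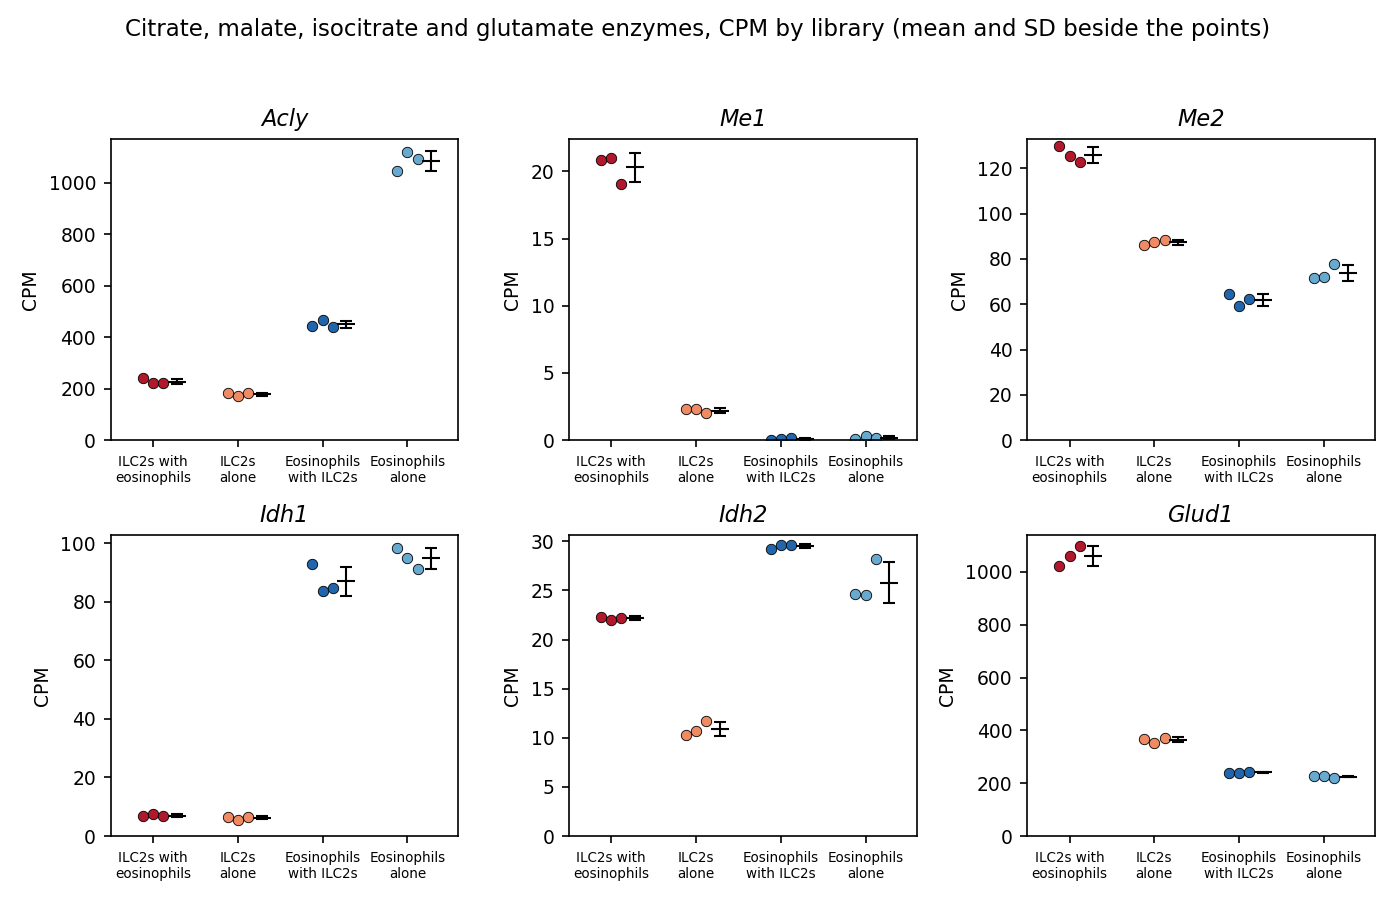
CPM of Acly, Me1, Me2, Idh1, Idh2 and Glud1 in each of the 12 libraries (points), with the group mean and SD beside them. Me1 and Glud1 stand highest in cocultured ILC2s, Acly is highest in eosinophils alone, and Idh1 is above 83 CPM in every eosinophil library and below 7.5 CPM in every ILC2 library.

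The NADP-linked isocitrate dehydrogenases differed from each other. Idh2, the mitochondrial enzyme, had 22.3, 22.0 and 22.2 CPM in cocultured ILC2s, against 10.3, 10.7 and 11.7 CPM in ILC2s alone, a 2.02-fold rise (log2 fold change 1.01 ± 0.088, edgeR adjusted p = 2.41e-11). Idh1, the cytosolic one, had 6.68, 7.45 and 6.69 CPM in cocultured ILC2s and 6.58, 5.59 and 6.57 CPM in ILC2s alone, and was not called (edgeR adjusted p = 0.335). In eosinophils Idh2 had 29.2, 29.6 and 29.6 CPM in coculture and 24.6, 24.5 and 28.2 CPM alone, and Idh1 had 92.8, 83.7 and 84.6 CPM in coculture and 98.2, 95.1 and 91.2 CPM alone. Neither was called there, the Idh1 ranges overlapping and the Idh2 ranges not. Aco1, the cytosolic aconitase that doubles as an iron-regulated RNA-binding protein, had 35.4, 34.6 and 29.4 CPM in cocultured eosinophils against 27.5, 23.6 and 28.3 CPM in eosinophils alone. The rise of 0.30 ± 0.098 on the log2 scale had an edgeR adjusted p of 0.0419, a call that was lost when any of 4 libraries was left out, with edgeR adjusted p between 0.0812 and 0.152.

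All 4 pentose phosphate genes rose in cocultured ILC2s, where 36.8% of all genes were called higher. Tkt, transketolase of the non-oxidative branch, had 269, 248 and 262 CPM in cocultured ILC2s, against 97.4, 92.4 and 105 CPM in ILC2s alone, a 2.62-fold rise (log2 fold change 1.39 ± 0.044, edgeR adjusted p = 1.55e-21). G6pdx, which catalyses the first, NADPH-forming step, had 59.6, 59.6 and 60.5 CPM in cocultured ILC2s against 35.4, 32.8 and 37.5 CPM in ILC2s alone, a 1.69-fold rise. Pgd, the second NADPH-forming enzyme, had 99.6, 98.2 and 102 CPM in cocultured ILC2s against 63.1, 61.7 and 60.4 CPM in ILC2s alone, a 1.61-fold rise. Every cocultured library lay above every library of ILC2s alone for these genes. Taldo1, transaldolase, had 139.6, 137 and 142 CPM in cocultured ILC2s against 108, 99.5 and 106 CPM in ILC2s alone, a 1.32-fold rise. The edgeR adjusted p-values were 1.06e-12 for G6pdx, 3.15e-14 for Pgd and 7.82e-10 for Taldo1.

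Since these genes are far higher in eosinophils, the level of eosinophil markers in the ILC2 libraries is given beside the rises. The median level of 7 eosinophil markers, relative to cocultured eosinophils, was 0.0211% to 0.0422% in cocultured ILC2s, against 0.0127% to 0.0348% in ILC2s alone. The highest of these shares was applied to the level of each gene in cocultured eosinophils. It equalled 2.04% of the Taldo1 difference, 1.10% of the Pgd difference, 0.615% of the G6pdx difference and less of any other rise. For the rises in eosinophils the corresponding figure from 7 ILC2 markers, Il1rl1 and Ptprc left out, was at most 0.879%, for Dlat. The median level of those markers, relative to cocultured ILC2s, was 0.0563% to 0.107% in cocultured eosinophils. In eosinophils alone it was higher, at 0.140% to 0.215%. As cells cultured alone also gave such levels, these shares do not measure partner RNA. The part of partner RNA in the rises was not tested. G6pdx overlaps Ikbkg by 418 exonic bases on the opposite strand, so its reads could include some of that gene.

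In eosinophils these 4 pentose phosphate genes were high with or without ILC2s. Tkt had 822, 818 and 855 CPM in cocultured eosinophils, against 666, 645 and 758 CPM in eosinophils alone, a 1.18-fold rise (log2 fold change 0.24 ± 0.061, edgeR adjusted p = 0.0102). The ranges did not overlap, but the call was lost without the first eosinophils-alone library (edgeR adjusted p = 0.0674) or without the third cocultured library (0.0624). G6pdx had 358, 357 and 363 CPM in coculture and 319, 327 and 355 CPM alone, Pgd 998, 978 and 1029 CPM in coculture and 914, 849 and 954 CPM alone, and Taldo1 1767, 1571 and 1673 CPM in coculture and 1707, 1578 and 1967 CPM alone. None of the 3 was called.

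**Figure D5:**
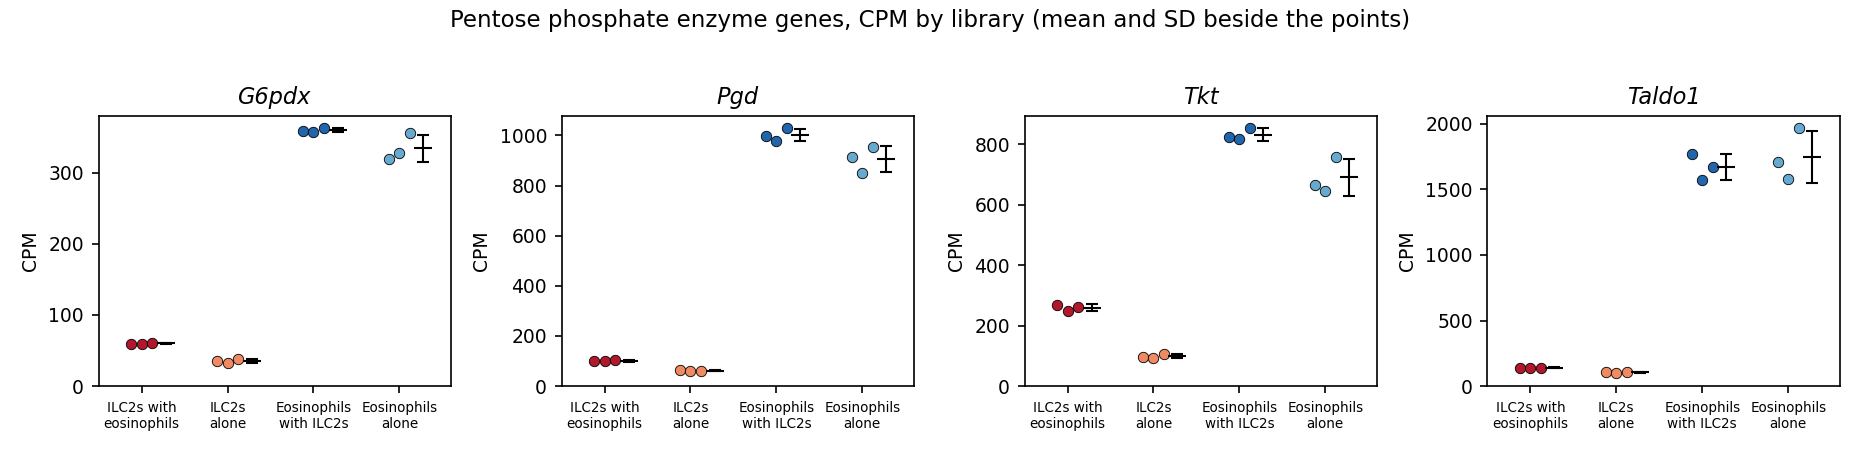
CPM of the pentose phosphate genes G6pdx, Pgd, Tkt and Taldo1 in each of the 12 libraries (points), with the group mean and SD beside them. Each gene is higher in every eosinophil library than in any ILC2 library, and within ILC2s the cocultured libraries lie above those of ILC2s alone.

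The cells cultured alone already differed in most of these genes. This comparison shares its libraries with both coculture comparisons, and cell type, tissue of origin and earlier cytokines cannot be told apart in it. Of 33 genes tested, 14 were higher and 17 lower in ILC2s alone than in eosinophils alone, and 2 were not called (93.9% called). Over all 14525 genes tested, 80.7% were called, 40.8% higher and 39.9% lower. The median log2 fold change was -0.18, beside 0.027 over all genes. With scaling by library totals, the calls over all genes became 8586 higher and 3666 lower, against 5923 higher and 5796 lower here.

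The 4 pentose phosphate genes were all lower in ILC2s alone, 16.6-fold for Taldo1, 14.6-fold for Pgd, 9.41-fold for G6pdx and 6.97-fold for Tkt. Idh1 was 15.1-fold lower in ILC2s alone (log2 fold change -3.91 ± 0.085, edgeR adjusted p = 2.85e-15), Pdk3 6.65-fold, Acly 6.07-fold and Mdh2 4.04-fold lower. On the other side, Idh3a was 5.38-fold higher in ILC2s alone, at 53.3, 59.2 and 58.2 CPM against 11.5, 9.49 and 11.0 CPM in eosinophils alone (log2 fold change 2.43 ± 0.092, edgeR adjusted p = 2.23e-12). Suclg2 was 2.45-fold higher, at 26.1, 21.3 and 22.4 CPM in ILC2s alone against 8.96, 9.43 and 10.2 CPM in eosinophils alone. Pdk2 was 2.08-fold higher. None of these pairs of groups overlapped. The 14 higher genes include Me1, which had 156 counts in ILC2s alone against 9 in eosinophils alone and entered the test only through its ILC2 level, so no fold is given for it.

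Subunit and isoform make-up per kilobase is given as values, with no test. Idh3a made up 14.5% ± 0.600 of the summed CPM per kb of the 3 Idh3 genes in ILC2s alone and 4.14% ± 0.280 in eosinophils alone (SD, n = 3 each). Idh1 made up 34.9% ± 2.34 of Idh1 and Idh2 together in ILC2s alone and 77.5% ± 2.01 in eosinophils alone, and 22.6% ± 1.23 in cocultured ILC2s. Smaller differences depended on the scaling: Pdhb, Dld, Cs, Ogdh, Sucla2 and Suclg1 were called lower in ILC2s alone by 0.18 to 0.53 on the log2 scale, but with scaling by library totals all 6 had positive values, between 0.037 and 0.39.

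The difference between the coculture responses was tested directly over all 12 libraries, as the response of ILC2s minus that of eosinophils. It differed for 23 of 33 genes tested (69.7%), 21 of them more positive in ILC2s and 2 more negative. Over all 15745 genes, 51.5% were called, 26.8% positive and 24.8% negative, and with scaling by library totals the calls were 3357 positive and 5110 negative in place of 4215 and 3899. The largest positive differences among genes tested in both cell types were those of Pdk1 (2.67 ± 0.094, edgeR adjusted p = 6.26e-17), Pcx (2.15 ± 0.30, edgeR adjusted p = 1.76e-06) and Pdk3 (1.97 ± 0.12, edgeR adjusted p = 1.8e-12). The eosinophil response of Pcx was itself not called (-0.47 ± 0.30, edgeR adjusted p = 0.293) and rested on 95 counts in coculture and 119 alone. The negative ones were Pdk2 (-2.02 ± 0.15, edgeR adjusted p = 3.57e-11) and Idh3b (-0.34 ± 0.073, edgeR adjusted p = 0.000353). Me1 is counted among the 21, but with 14 counts over the 6 eosinophil libraries its eosinophil response could not be measured, and its difference is no comparison of 2 responses. All 4 pentose phosphate genes had positive differences, between 0.48 for Taldo1 and 1.13 for Tkt. The 10 genes not called included Idh3g, Ogdh, Dlat and Aco1, which were called in eosinophils.

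A list of 42 further genes of these pathways went through the same fits. In cocultured ILC2s 38 were tested, of which 21 rose, 9 fell and 8 were not called (72.4% of all genes were called there), and in cocultured eosinophils 35 were tested, of which 6 rose, 4 fell and 25 were not called (24.9% of all genes). In the pentose phosphate part of this list, 6 genes were tested. Of these, 3 rose and 2 fell in cocultured ILC2s, and 4 rose and 0 fell in cocultured eosinophils. Over all genes, 36.8% rose and 35.6% fell in ILC2s, and 11.4% rose and 13.5% fell in eosinophils. Between cells cultured alone, 3 of the 6 were higher and 2 lower in ILC2s, beside 40.8% and 39.9% of all genes. The following genes were named after their values were seen. Ldha, lactate dehydrogenase A, which turns pyruvate into lactate, had a log2 fold change of 2.45 ± 0.038 in ILC2s (edgeR adjusted p = 7.67e-29) and -1.39 ± 0.054 in eosinophils (edgeR adjusted p = 5.11e-10). Slc25a1, the carrier that exports citrate for Acly, had 0.82 ± 0.064 in ILC2s (edgeR adjusted p = 2.85e-12) and -0.38 ± 0.10 in eosinophils (edgeR adjusted p = 0.0157), a call that was lost without any of 3 libraries there. Slc25a12 (an aspartate-glutamate carrier of the malate-aspartate shuttle) rose by 1.42 on the log2 scale in ILC2s and Got2 (its mitochondrial aminotransferase) by 0.92, and neither was called in eosinophils. In ILC2s the acetyl-CoA synthetase genes Acss1 and Acss2 fell by 2.16 and 1.21. Acss1 also fell by 0.51 in eosinophils.

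As a share of all counts, the 34 genes took 0.442% ± 0.00113 in cocultured ILC2s, against 0.305% ± 0.00575 in ILC2s alone, and 0.560% ± 0.0129 in cocultured eosinophils and 0.586% ± 0.0215 in eosinophils alone (SD, n = 3 each). The pentose phosphate genes alone took 0.329% in cocultured eosinophils and 0.308% in eosinophils alone, and 0.0623% in cocultured ILC2s and 0.0375% in ILC2s alone. Side-reaction enzymes took 0.185% in cocultured ILC2s and 0.0959% in ILC2s alone. The same enzymes took 0.0843% in cocultured eosinophils and 0.134% in eosinophils alone. These shares largely follow 1 gene in each cell type. Glud1 had 74656 counts in cocultured ILC2s and 26119 in ILC2s alone, and Acly had 23210 in cocultured eosinophils and 51464 in eosinophils alone.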

How the data were processed

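RNA-seq read counts per gene were used as the authors deposited them, as whole numbers with no normalization. Per the submitters' processing notes, the tools included STAR 2.5.2b, Subread 1.5.2 with featureCounts, Trimmomatic 0.36 and bcl2fastq 2.17, on build mm10. Not given in the sources used here are the strand setting, the release of the annotation and the handling of multi-mapping reads. Symbols, exon lengths and overlaps came from GENCODE M21, and promoters from RefSeq (GRCm38.p6), taking the start site nearest the annotated 5′ end. Of 34 genes 31 had a RefSeq start within 1000 bases of that end, a limit set after the distances were seen. Sucla2, whose nearest start lay 27467 bases away, was left out, and Idh3a and Me2 are named only.

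Library totals were 16769929 to 22928961 counts. Groups and replicate numbers came from the sample titles. Each comparison of 2 groups was fitted on its 6 libraries, and the difference of responses on all 12, in edgeR 4.0.16 (R 4.3.3) with filterByExpr, TMM and the quasi-likelihood F test, adjusted by Benjamini-Hochberg over all genes tested and called under 0.05. Standard errors were the absolute log2 fold change over the root of F. The scripts were tested on simulated data. No replicate pair was a duplicate (chi-square over its degrees of freedom, 2.57 to 19.5). The biological coefficient of variation was 4.71% in ILC2s and 7.92% in eosinophils.

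The genes, lists and tests were chosen with earlier results of these data known. By the naming rule, values of every library are given for up to 8 called genes of largest absolute log2 fold change with at least 8 CPM in each coculture comparison, for the Pdk and pentose phosphate genes, Idh1, Idh2 and Acly, and for genes called in opposite directions. The cell type and difference comparisons took up to 4 per side. Alternatives were DESeq2 1.42.0, its size factors, upper-quartile or library-total scaling, no filter, a filter of 1 CPM in 3 libraries, all 12 libraries in a fit, the replicate block, and leaving out each library.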

Additional observations from a re-analysis of the deposited data

Results flagged for a closer look

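For 23 genes, Me1 with a reservation, the coculture response differed between the cell types by the test over all 12 libraries (edgeR adjusted p under 0.05). The values are log2 differences, the response of ILC2s minus that of eosinophils. Around pyruvate they were 2.67 for Pdk1, 1.97 for Pdk3, -2.02 for Pdk2, 2.15 for Pcx, 0.71 for Pdhb, 0.48 for Mpc2 and 0.31 for Mpc1. In the TCA cycle they were 0.99 for Fh1, 0.91 for Mdh2, 0.79 for Cs, 0.50 for Suclg2, 0.40 for Sucla2 and -0.34 for Idh3b. Among the side enzymes they were 1.62 for Acly, 1.44 for Glud1, 0.83 for Idh2, 0.78 for Me2 and 0.66 for Mdh1. In the pentose phosphate pathway they were 1.13 for Tkt, 0.66 for G6pdx, 0.55 for Pgd and 0.48 for Taldo1. For Pdk2, Pdk3, Acly and Me2 the response was also called in each cell type with opposite signs. The fit also gave 4.14 for Me1, but Me1 had 14 counts over the 6 eosinophil libraries and entered the test only through ILC2s, so this value does not compare 2 measured responses. The Mpc1 call was lost without any of 4 single libraries. With scaling by library totals the calls of Mpc1 (edgeR adjusted p = 0.402), Mpc2 (0.0543), Sucla2 (0.0660) and Suclg2 (0.0655) were lost, and Mpc1 also lost its call under upper-quartile scaling (0.0797) and with no low-count filter (0.0703).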

How the results depend on the processing

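The ILC2 calls were the steadiest: leaving out each library gave 25 genes higher each time and 3 to 4 lower, with 5144 to 5297 higher and 4869 to 5141 lower over all genes. In eosinophils the same left 2 to 6 genes higher (2 without the first eosinophils-alone library), 4 lower each time, and 948 to 1604 higher and 1337 to 1923 lower over all genes, the 948 without the third cocultured library. Between cell types it gave 12 to 14 higher and 16 to 17 lower (5717 to 6086 and 5662 to 5875 over all genes), and for the difference of responses 20 to 23 positive and 2 to 3 negative (4005 to 4271 and 3650 to 4006). Library-total scaling shifted the median of all genes by -0.16 in ILC2s, 0.57 between cell types and -0.19 in the difference of responses. It gave 5 genes lower in ILC2s, 11 lower between cell types and 5 negative differences, with 6327, 3666 and 5110 over all genes. It also turned the direction of Dlst in ILC2s (-0.14) and, between cell types, of Pdhb (0.037), Dld (0.39), Cs (0.10), Ogdh (0.080), Sucla2 (0.093) and Suclg1 (0.11), and upper-quartile scaling, with a median shift of 0.23 there, turned Dld (0.055). DESeq2, and its size factors in edgeR, lost no call of the enzyme genes except Dlat in eosinophils. All 12 libraries in 1 fit gave 2276 genes higher in eosinophils against 1493. Same-numbered libraries correlated above 0.1 in only 2 of the 9 pairs, and both were in the eosinophil coculture comparison. There the correlations were 0.0818, 0.535 and 0.2 for replicates 1, 2 and 3, so a shared batch in eosinophils is possible. As the labels do not say what the numbers mark, they were not taken to pair samples in the main fits. With the replicate block, eosinophils had 9 enzyme genes higher and 5 lower, with 2029 and 2139 over all genes, and ILC2s kept counts of 25 and 3. The cause of these shifts was not tested. Low counts limited Me1 in eosinophils and Pdk4 everywhere.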
